A study of Mus musculus with 40 samples.

Results

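Primed regions were studied here as distal stretches of chromatin that carried monomethylation of lysine 4 of histone H3 (H3K4me1) without acetylation of lysine 27 (H3K27ac). The marks were mapped by ChIP-seq, in which chromatin is sheared, enriched with an antibody and sequenced, in interscapular brown adipose tissue (iBAT), a heat-producing fat depot (the series' design text calls it inguinal). H3K4me1 peaks were merged over the lists of 8 mice. A region was kept when 2 or more lists had a peak in it, when more than 2500 bp separated it from every annotated start site, and when no H3K27ac and no H3K4me3 peak of any of the 8 lists of each overlapped it. This left 3502 primed regions out of 46451 merged H3K4me1 regions. They made up 26.1% of the 13399 regions that were recurrent and distal. The others were 7667 regions with H3K27ac and no H3K4me3, called acetylated here and used for comparison, and 2230 regions with H3K4me3. The members were chosen by the presence and absence of peaks in these lists, so the absence of H3K27ac and H3K4me3 is no finding. Without the H3K4me1 list of mouse 5, 2297 regions met the rule.

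All animals were wild type C57BL/6N mice, 20 weeks old, with 2 mice for each combination of temperature and diet. Mice 1 and 2 were kept warm on a normal chow diet (NCD), mice 4 and 5 spent 24 h at 4 °C on NCD, mice 7 and 8 were kept warm on a high-fat diet (HFD), and mice 10 and 11 had both the HFD and the cold. The HFD had been given for 12 weeks from 8 weeks of age. Each mouse had lists for H3K4me1, H3K27ac, H3K4me3 and H3K27me3. The wording of the methods leaves unclear whether a library was made from 1 animal or from a pool of 2, so p-values measure the spread between these libraries. The H3K4me1 lists were very unequal. Mice 2, 4, 5, 8 and 11 had 21356, 15676, 27568, 17597 and 7774 peaks and are called the 5 deep lists below, whereas mice 1, 7 and 10 had 592, 12 and 18. The H3K27ac lists held 3224 to 40604 peaks, with the fewest in mouse 7. The start sites of all 8 brown adipocyte markers examined carried H3K4me3 in 8 of 8 mice. The 4 endothelial markers carried it in 7 or 8 mice, the 4 macrophage markers in 0 to 3 and the 4 skeletal muscle markers in 0 to 6. The part of other cell types in the primed regions was not tested, and in bulk tissue a mark in few cells cannot be told apart from a weak mark in many.

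H3K4me1 is laid down by the methyltransferases KMT2C and KMT2D at enhancers, the distal elements that raise transcription of genes on the same chromosome. H3K27ac is added by the acetyltransferases p300 and CBP and marks enhancers that are in use. Enhancers with H3K4me1 alone are termed primed: they can be marked before a gene is switched on, or stay marked after it has been switched off. Another state, called poised, combines H3K4me1 with H3K27me3, the mark of Polycomb repression. In brown fat, enhancers are set up during adipocyte differentiation by factors such as EBF2, PPARγ and C/EBP proteins.

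Sequences around the H3K4me1 summit show what such elements are made of. The first 4 below are GRCm38 plus-strand windows of 300 bases from members with the most widely shared H3K4me1, and any match to 13 searched motifs is in capitals. The next 4 were picked as examples after the motif search, and only the motifs for which they were picked are in capitals. These are an EBF palindrome (TCCC and GGGA with any 2 bases between) in introns of Sh3pxd2a and Pak4, and a PPAR and RXR direct repeat (AGGTCA and AGGTCA with any 1 base between, on either strand) in introns of Ankrd11 and Nfib. Other searched motifs are not marked in these 4 windows. The Pak4 window also holds TGACGTCA, the searched CRE motif, in small letters.
Fam78b intron, chr1:167069790-167070089: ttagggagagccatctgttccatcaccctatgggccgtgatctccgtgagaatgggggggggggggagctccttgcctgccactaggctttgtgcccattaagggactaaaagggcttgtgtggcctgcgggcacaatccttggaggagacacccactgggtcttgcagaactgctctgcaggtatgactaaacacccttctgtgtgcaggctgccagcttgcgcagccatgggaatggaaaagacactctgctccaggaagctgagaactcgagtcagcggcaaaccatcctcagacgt
intergenic near Zfp618, chr4:62878499-62878798: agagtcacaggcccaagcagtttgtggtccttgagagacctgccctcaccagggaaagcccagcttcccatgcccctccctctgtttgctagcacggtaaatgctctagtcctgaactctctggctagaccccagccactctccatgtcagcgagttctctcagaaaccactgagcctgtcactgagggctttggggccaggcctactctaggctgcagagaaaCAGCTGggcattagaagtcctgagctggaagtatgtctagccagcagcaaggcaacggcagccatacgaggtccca
Arid1a intron, chr4:133701398-133701697: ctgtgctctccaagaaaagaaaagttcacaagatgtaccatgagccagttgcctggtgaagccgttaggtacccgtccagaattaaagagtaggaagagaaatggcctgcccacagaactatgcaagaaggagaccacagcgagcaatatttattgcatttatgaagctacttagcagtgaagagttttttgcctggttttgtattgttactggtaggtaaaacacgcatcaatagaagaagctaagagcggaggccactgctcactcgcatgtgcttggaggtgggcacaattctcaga
Arntl intron, chr7:113250560-113250859: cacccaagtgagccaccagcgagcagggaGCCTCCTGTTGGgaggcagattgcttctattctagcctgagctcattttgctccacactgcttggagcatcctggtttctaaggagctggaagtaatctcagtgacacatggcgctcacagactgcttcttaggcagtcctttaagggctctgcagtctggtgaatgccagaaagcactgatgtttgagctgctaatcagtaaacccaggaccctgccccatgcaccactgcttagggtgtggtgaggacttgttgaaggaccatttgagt
Sh3pxd2a intron, chr19:47298353-47298652: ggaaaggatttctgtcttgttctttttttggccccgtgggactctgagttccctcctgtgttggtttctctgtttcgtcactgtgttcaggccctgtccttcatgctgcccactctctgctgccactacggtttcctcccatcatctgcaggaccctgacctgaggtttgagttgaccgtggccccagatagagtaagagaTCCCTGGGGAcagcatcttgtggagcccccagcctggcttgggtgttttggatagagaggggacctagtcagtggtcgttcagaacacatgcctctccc
Pak4 intron, chr7:28587095-28587394: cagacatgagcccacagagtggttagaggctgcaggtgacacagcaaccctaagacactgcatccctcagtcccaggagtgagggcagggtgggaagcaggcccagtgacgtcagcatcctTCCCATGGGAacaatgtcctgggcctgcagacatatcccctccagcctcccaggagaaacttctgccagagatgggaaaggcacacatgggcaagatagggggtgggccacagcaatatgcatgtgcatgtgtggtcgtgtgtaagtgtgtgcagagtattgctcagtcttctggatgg
Ankrd11 intron, chr8:123031765-123032064: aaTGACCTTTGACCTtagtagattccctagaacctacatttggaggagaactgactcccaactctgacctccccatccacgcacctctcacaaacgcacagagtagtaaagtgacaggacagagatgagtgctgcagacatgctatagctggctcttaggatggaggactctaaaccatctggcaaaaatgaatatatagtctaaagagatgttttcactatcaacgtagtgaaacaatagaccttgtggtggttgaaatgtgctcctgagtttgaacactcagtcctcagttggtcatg
Nfib intron, chr4:82593696-82593995: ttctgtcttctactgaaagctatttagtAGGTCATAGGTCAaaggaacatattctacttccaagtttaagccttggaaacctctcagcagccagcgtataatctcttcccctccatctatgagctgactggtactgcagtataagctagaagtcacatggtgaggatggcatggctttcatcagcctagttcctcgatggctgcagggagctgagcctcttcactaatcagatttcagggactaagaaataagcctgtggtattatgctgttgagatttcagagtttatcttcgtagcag

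The Fam78b and Arid1a windows held none of the 13 motifs, which says only that these letters are not in these windows. The window near Zfp618 held the E-box CAGCTG, and the Arntl window a core motif of CTCF, the factor that anchors chromatin loops. The windows had GC contents of 57.0% (Fam78b), 56.7% (Zfp618), 45.3% (Arid1a) and 52.3% (Arntl).

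Most members were just inside the rule. A peak was present in 2 lists for 2129 regions (60.8%), in 3 lists for 930, in 4 for 342, in 5 for 97 and in 6 for 4. Among the acetylated regions 42.7% were in 2 lists, 29.9% in 3 and 18.2% in 4. Just outside the rule lay 8994 distal regions without H3K27ac or H3K4me3 that had a peak in only 1 list. At the distance limit, 40 primed regions had their nearest start site 2501 to 2600 bp away, and 40 otherwise equal regions were excluded at 2401 to 2500 bp. At the acetylation limit, 99 primed regions had an H3K27ac peak within 100 bp, while 1397 acetylated regions had H3K27ac in only 1 of the 8 lists and 504 had it in all 8.

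Primed regions were spread at very different distances from acetylated chromatin. The gap to the nearest H3K27ac peak of any mouse had a median of 4.09 kb, with quartiles of 0.938 and 13.6 kb and a maximum of 894 kb. An H3K27ac peak lay less than 1 kb away from 907 regions (25.9%), between 1 and 10 kb from 1502, between 10 and 100 kb from 991 and at least 100 kb away from 102. The class thus includes both the flanks of acetylated stretches and H3K4me1 far from any H3K27ac. The median width was 528 bp (quartiles 400 and 728 bp), against 646 bp for acetylated regions. A wider region has more bases on which a peak of another mark can fall, so width is not independent of the rule and was not read as a difference.

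No primed region had the poised combination. An H3K27me3 peak of any of the 8 lists overlapped 0 of 3502 primed regions, which allows a share of up to 0.0857% if regions are counted as independent draws. Of the acetylated regions 1 of 7667 overlapped H3K27me3, and of all merged H3K4me1 regions 290 did. H3K27me3 lists were short in most mice, with 20 to 309 peaks in 6 of them, 1392 in mouse 11 and 6428 in mouse 5. The share of peaks in a library that overlapped H3K27me3 was 0% for primed and 0.0135% ± 0.0142 (SD, n = 5) for acetylated regions (two-sided exact sign-flip permutation p = 0.25, adjusted 0.25 over 7 measures). The values above 0, in mice 2, 4 and 5, all came from that 1 acetylated region. The SD thus holds repeated counts of 1 region, and the test cannot compare the classes. Absence of a peak in lists of this length is not evidence that the mark was missing.

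The number of members detected differed widely between mice. In the NCD mice 1, 2, 4 and 5, primed regions with a peak numbered 17, 2181, 1757 and 2628. In the HFD mice 7, 8, 10 and 11 they numbered 0, 1631, 0 and 711. Mice 1, 7 and 10 were low and the other 5 high, and the groups overlapped by temperature and by diet. Primed regions as a share of the recurrent distal regions in a mouse were 22.9%, 21.9%, 24.3%, 25.2% and 20.5% in mice 2, 4, 5, 8 and 11. These 5 lists thus lay within a narrow band although their lengths differed widely. The share was 5.06% in mouse 1, on 336 regions.

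**Figure D1:**
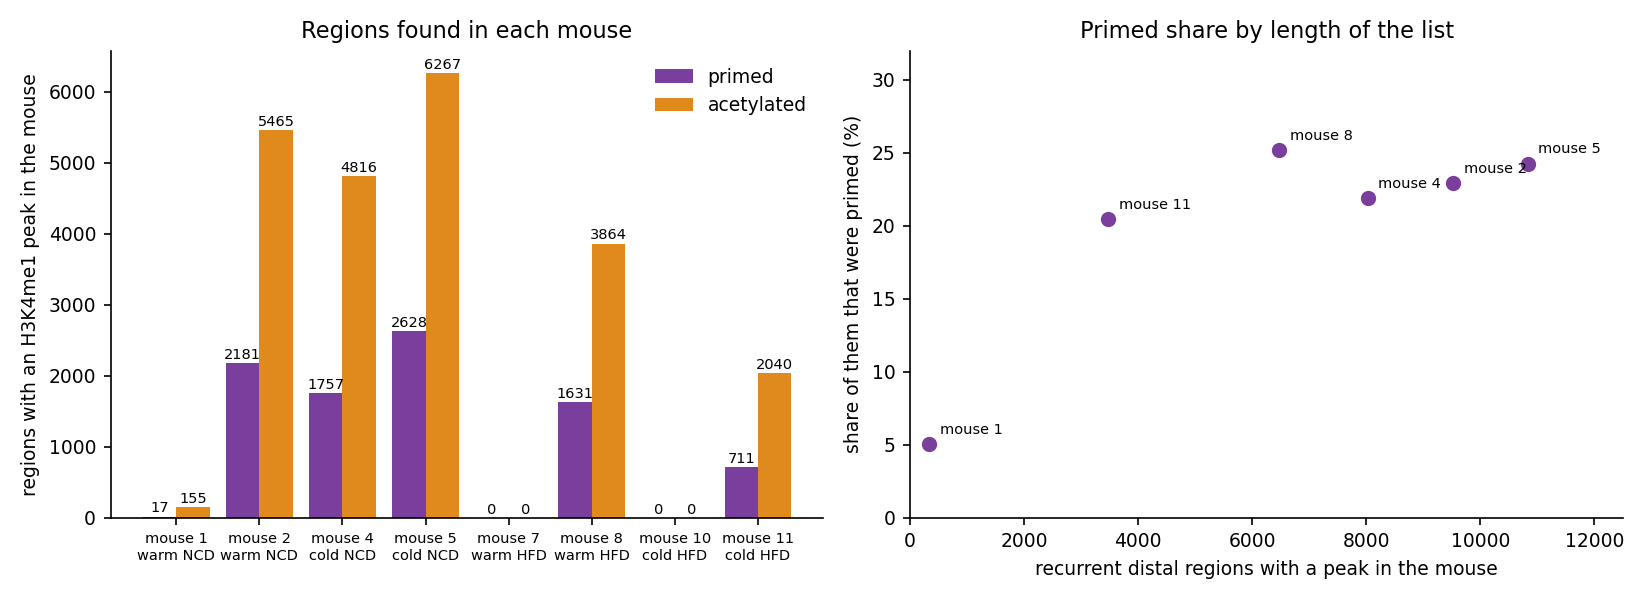
Left, number of primed (purple) and acetylated (orange) regions with an H3K4me1 peak in each of the 8 mice. Right, share of the recurrent distal regions of a mouse that were primed (%) against their number, for the 6 mice with at least 20 such regions; 5 mice sit between 20.5% and 25.2% and mouse 1 at 5.06%.

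The design asks whether cold or HFD changed this set. The geometric mean number of primed regions per mouse was 239 in the cold and 88.5 in warm mice (two-sided exact permutation p = 0.771, adjusted 0.771, n = 4 and 4). It was 31.8 on HFD and 652 on NCD (two-sided exact permutation p = 0.171, adjusted 0.514). The interaction of temperature and diet did not pass either (exact permutation p = 0.6, adjusted 0.771). The smallest p of 4 against 4 mice is 0.0286. None of these differences was larger than the spread between mice, in which mice 1, 7 and 10 had the lowest values. The rule had chosen the members by peaks in 2 or more of these same H3K4me1 lists, of which 3 deep ones were NCD and 2 HFD. The counts are thus not independent of the rule, and these tests cannot decide whether a condition changed the set. Without mice 1, 7 and 10 the log10 difference between cold and warm was −0.10 in place of 0.43, and that between HFD and NCD was −0.30 in place of −1.30 (exact permutation p = 0.1, the smallest that 2 against 3 mice allow, adjusted 0.3). In the 5 deep lists the HFD numbers of 1631 and 711 lay below the NCD numbers of 1757 to 2628, and the HFD lists had 17597 and 7774 H3K4me1 peaks against 15676 to 27568 in the NCD lists. The part of list length in this was not tested.

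A small share of members had a peak at only 1 level of a condition, as was also seen for H3K4me1 regions in general. With all 8 mice, 1 primed region (0.0286%) had a peak in all 4 NCD mice and in no HFD mouse, against 0.283% of all 20520 recurrent regions. No primed region was cold-only, warm-only or HFD-only in 8 mice, and the same holds for all recurrent regions (0% each). Each of these levels needed a peak in mouse 7 or mouse 10, or in both. These mice had 12 and 18 H3K4me1 peaks and a peak in 0 primed regions, so the result for primed regions was fixed in advance. The NCD-only count needed a peak in mouse 1, which had a peak in 17 primed regions. Over the 5 deep lists, 39 primed regions (1.11%) had a peak in all 3 cold lists and in neither warm list (all recurrent regions, 0.965%). Another 195 (5.57%) had a peak in both warm lists only (all, 3.92%). By diet, 358 (10.2%) were found in the 3 NCD lists only (all, 12.8%) and 82 (2.34%) in both HFD lists only (all, 1.5%). A warm-only or HFD-only region needs peaks in only 2 lists and a cold-only or NCD-only region in 3, so the shares of opposite levels are not on the same footing. Presence in so few mice cannot be tested region by region.

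Among the combinations of mice, the most frequent was mice 2 and 5, with 568 members (16.2%). These had the longest lists. Mice 5 and 8 followed with 388, mice 2, 4 and 5 with 357, and mice 4 and 5 with 329. All 5 deep lists and no other had a peak in 89 primed regions (2.54%), against 575 acetylated regions (7.50%).

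**Figure D2:**
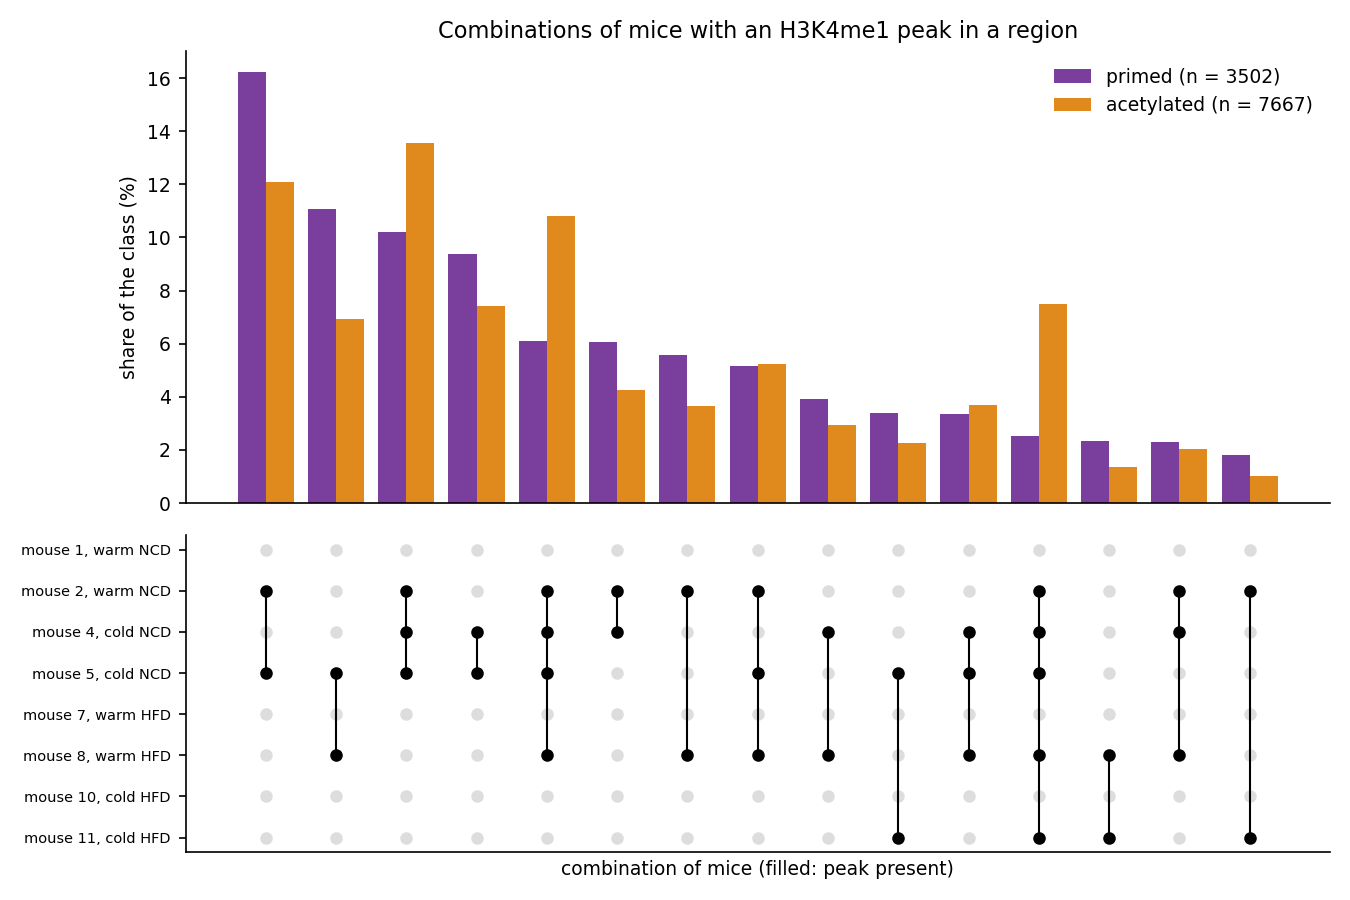
The 15 most frequent combinations of mice with an H3K4me1 peak in a primed region; bars give the share of primed (purple) and acetylated (orange) regions with exactly that combination (%), and filled dots below mark the mice. Mice 2 and 5 lead among primed regions with 16.2%, whereas the combination of all 5 deep lists holds 2.54% of primed and 7.50% of acetylated regions.

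Of the 10 members present in the most lists, 9 lay in introns. The 4 regions present in 6 of 8 lists were in introns of Baiap2, Fam78b and Arid1a and in the intergenic space 86875 bp from the start of Zfp618. Fold enrichment, the ratio of ChIP signal to local background that the authors' peak caller gave, is set within each library and was not compared between mice. The Arid1a region (chr4:133700780-133701863) had fold enrichments of 5.44, 4.56, 6.26, 6.95, 4.69 and 5.08 in mice 1, 2, 4, 5, 8 and 11. Arid1a encodes a DNA-binding subunit of the BAF chromatin remodeller, and the nearest H3K27ac peak was 4252 bp away. The Fam78b region (chr1:167069685-167070348) had 5.57, 8.10, 5.34, 6.95, 2.45 and 5.53 in the same mice, with H3K27ac 27084 bp away. The Zfp618 region (chr4:62878455-62878941) lay even farther from acetylation, at 98381 bp, with fold enrichments of 3.05 in mouse 2 to 6.50 in mouse 4. The Baiap2 region (chr11:119951954-119955575, 3622 bp wide) was in contrast only 144 bp from an H3K27ac peak. All 4 were found in warm and cold mice and on both diets.

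The next 6 by strength were in 5 lists and lay in introns of Klhl25, Arntl, Prdm2, Ranbp10, Insr and Stk24. Insr encodes the insulin receptor. Its region (chr8:3237704-3238349) had fold enrichments of 7.81, 6.74, 7.20, 4.39 and 4.57 in mice 2, 4, 5, 8 and 11. Arntl encodes BMAL1, the core activator of the circadian clock. Its region (chr7:113249531-113251238) had 5.69, 9.52, 3.75, 9.10 and 5.40 in mice 1, 2, 4, 5 and 8, and no peak in mouse 11. The Klhl25 region (chr7:75851918-75853810) had the highest median −log10 q of the 6, at 7.78, and lay 4423 bp from the start of Klhl25, an adaptor of a cullin ubiquitin ligase.

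Condition-bound members had a peak in all lists of 1 level and in none of the other, among the lists compared. They are given as examples by the strength of their peaks and without a test. The only primed region with a peak in all 4 NCD mice and in no HFD mouse was in an intron of Arid1b (chr17:5081876-5083733), another BAF subunit. Its fold enrichments were 5.85, 6.21, 3.84 and 4.57 in mice 1, 2, 4 and 5. Mice 7 and 10 had a peak in 0 primed regions, so the lack of a peak in these HFD mice was fixed in advance. Among the 5 deep lists, the first HFD-only region was in an intron of Ywhaz (chr15:36783596-36784181), which encodes a 14-3-3 adaptor protein, with 6.87 in mouse 8 and 7.45 in mouse 11. It lay 133 bp from an H3K27ac peak. The second HFD-only region was in an intron of Zfp423 (chr8:87835448-87836161), a regulator of preadipocyte commitment, with 5.45 and 5.76. The first cold-only regions were 341738 bp from the start of Trib2, which encodes a pseudokinase, and in an intron of Camta1, a calmodulin-binding transcription activator. The first warm-only regions were in introns of Atxn7l1, Galm, the galactose mutarotase, and Sik3, a salt-inducible kinase.

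By genomic place, 2728 primed regions (77.9%) had their midpoint in an intron, 160 (4.57%) in an exon and 614 (17.5%) between genes. The corresponding shares of acetylated regions were 70.8%, 4.08% and 25.1%. Peaks of the same library were compared next. The intronic share of primed and acetylated peaks was 78.9% and 71.7% in mouse 2, 78.4% and 72.9% in mouse 4, 77.5% and 71.3% in mouse 5, 80.7% and 75.9% in mouse 8, and 77.8% and 76.1% in mouse 11. Primed peaks were thus more often intronic in 5 of 5 libraries, by 5.12 percentage points ± 2.08 (SD, n = 5). The two-sided exact sign-flip permutation p was 0.0625 (adjusted 0.109 over 7 measures), which is the smallest that 5 libraries allow, so that no such difference could pass 0.05. The libraries share regions and are not independent draws of the genome. Without the pairing by library the adjusted exact permutation p was 0.0278, which treats the 2 classes of a library as separate samples.

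Other measures follow. The median distance to the nearest start site is given without a test, since the rule set a limit on it. Its log10 difference between primed and acetylated peaks was −0.0201 ± 0.0105 (SD, n = 5). Over regions, the medians were 11.2 kb and 11.6 kb. With a limit of 5000 bp the log10 difference was 0.000917. Median log2 fold enrichment was 2.26 ± 0.13 for primed and 2.32 ± 0.15 for acetylated peaks (SD, n = 5) and was lower in 5 of 5 libraries (exact sign-flip permutation p = 0.0625, adjusted 0.109). The difference was −0.0551, and −0.0238 without mouse 2 (exact sign-flip permutation p = 0.5). Fold enrichment comes from the same H3K4me1 peaks as width and was not separated from it, so it is given as a description only. GC content within 200 bp was 49.7% ± 1.41 and 49.3% ± 0.957, higher in 4 of 5 libraries (exact sign-flip permutation p = 0.188, adjusted 0.25). The number of CpG dinucleotides was 2.11 ± 0.163 and 2.05 ± 0.114 (exact sign-flip permutation p = 0.25, adjusted 0.25).

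**Figure D3:**
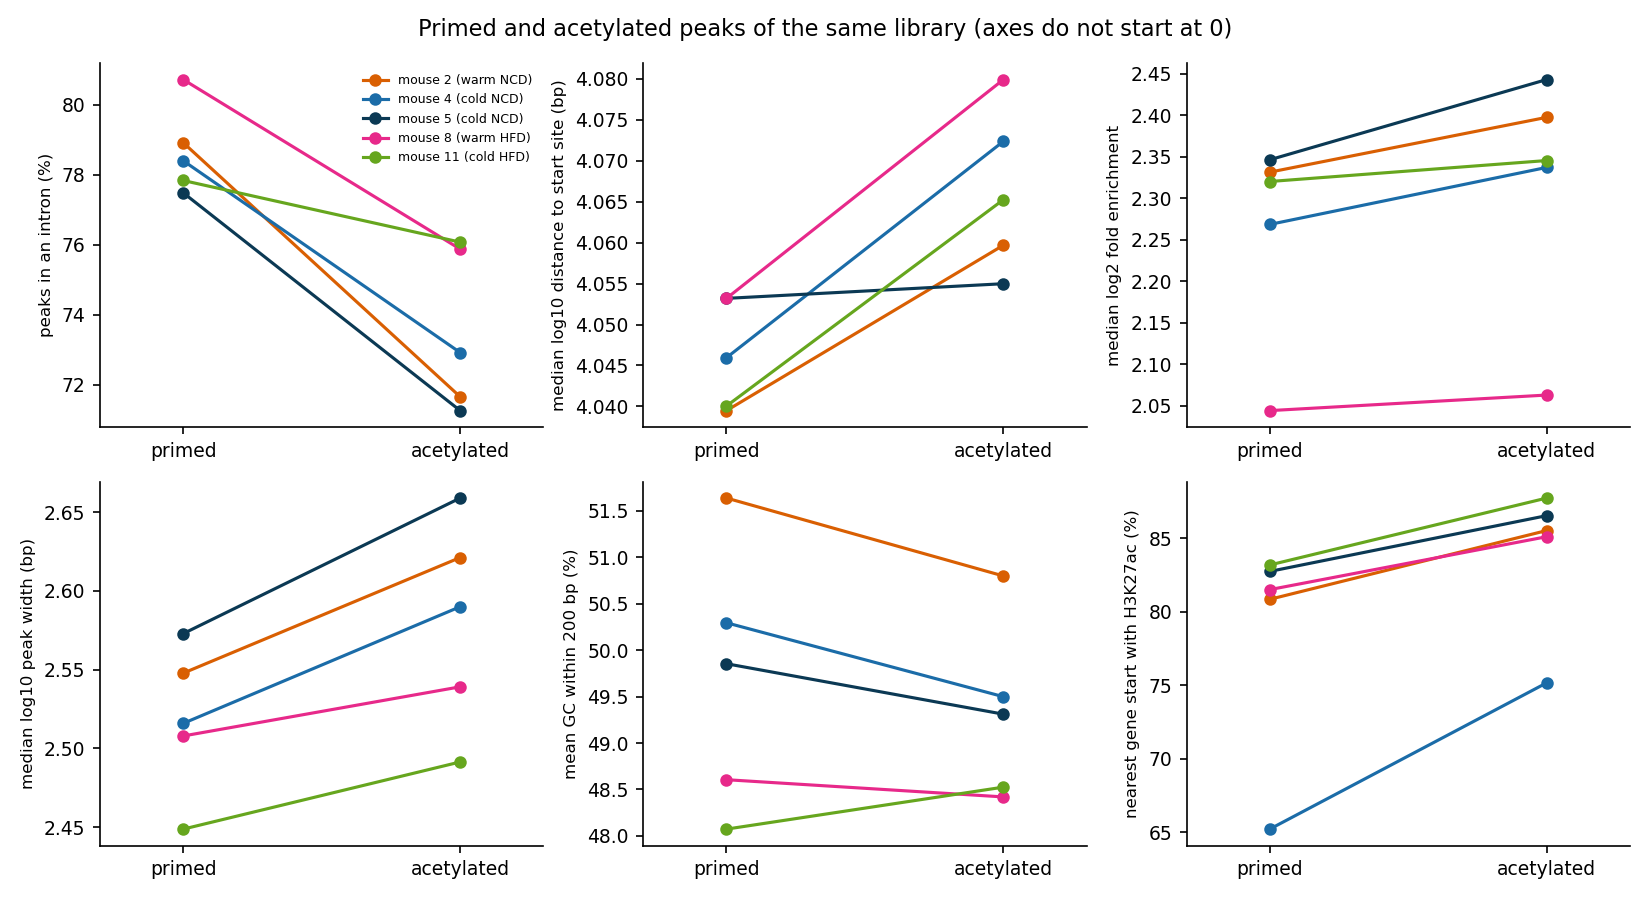
Each line joins the primed and the acetylated value of the same H3K4me1 library (mice 2, 4, 5, 8 and 11) for 6 measures, with units on each axis and axes that do not start at 0. Lines fall in 5 of 5 libraries for the intronic share and rise in 5 of 5 for distance, fold enrichment, width and H3K27ac at the nearest gene start; GC content falls in 4 of 5.

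Genes nearest to primed regions were mostly marked at their own starts. At the nearest protein-coding gene, H3K4me3 lay within 1000 bp of a start in at least 1 mouse for 94.1% of primed and 93.7% of acetylated regions, against 65.9% of all protein-coding genes. The first 2 shares are over regions, so a gene counts once for each region nearest to it. With each gene counted once, the share was 92.0% of the genes with a primed region. Within libraries, 93.0% ± 0.468 of primed and 93.2% ± 0.500 of acetylated peaks had H3K4me3 at the nearest gene start of the same mouse (SD, n = 5). H3K4me3 and H3K27ac at that start are given without a test, since the rule used the same lists to choose the members. H3K27ac was found there for primed and acetylated peaks in 80.8% and 85.5% in mouse 2, 65.2% and 75.2% in mouse 4, 82.7% and 86.5% in mouse 5, 81.5% and 85.1% in mouse 8, and 83.2% and 87.7% in mouse 11. H3K27me3 at the start in at least 1 mouse was listed for 5.60% of primed and 3.91% of acetylated regions, against 7.54% of all genes. Here too the first 2 shares are over regions and the last is over genes.

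The 3502 regions had 1924 nearest protein-coding genes, 8.78% of the 21911 annotated. Acetylated regions had 2789 (12.7%), and 1058 genes had both, which is 55.0% of the former and 37.9% of the latter. Long genes were frequent: the median length was 62.5 kb for genes with a primed region, 48.0 kb for genes with an acetylated region and 17.4 kb for all. H3K27ac was found at the start in at least 1 mouse for 72.1% of the 866 genes with primed regions only. The share was 89.5% for the genes with both and 50.8% for all protein-coding genes. The rule used the same H3K27ac lists to split the classes, so these shares are given without a test. A total of 1207 genes had 1 primed region and 111 had 5 or more.

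Chromatin and transcription regulators were frequent among the genes with the most primed regions, of which 9 are described, although no theme was tested. Gse1, whose product is found with corepressor complexes, led with 23 primed and 25 acetylated regions. Arid1b had 19 and 23. Med13l, a subunit of the kinase module of Mediator, had 18 and 3. Ankrd11, a chromatin regulator, had 16 and 7, and Jarid2, an accessory subunit of the Polycomb complex that writes H3K27me3, had 14 and 5. A further 4 act in signalling. Prkag2, a regulatory subunit of the energy sensor AMPK, had 17 and 12, and Map4k4, a stress-activated kinase, had 13 and 5. Foxo1, a transcription factor that insulin keeps out of the nucleus, had 12 and 13, and Prkce, a protein kinase C, had 12 and 17. These 9 carried H3K4me3 at a start in 8 of 8 mice and H3K27ac in 5 to 7.

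The Med13l locus shows how primed chromatin can extend over a gene. Of its 18 members 15 lay in its introns and 1 in an exon. H3K27ac was 1779 bp away from the intronic member closest to the 5′ end of the gene (chr5:118574341-118575552), and 105575 bp away from the last one (chr5:118709999-118711081). The member in the most lists (chr5:118675288-118676867) had fold enrichments of 6.31, 3.38, 5.88, 2.99 and 6.10 in mice 2, 4, 5, 8 and 11, and its nearest H3K27ac peak was 70864 bp away. Deep lists of all 4 conditions thus had H3K4me1 in a stretch in which no list had H3K27ac.

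**Figure D4:**
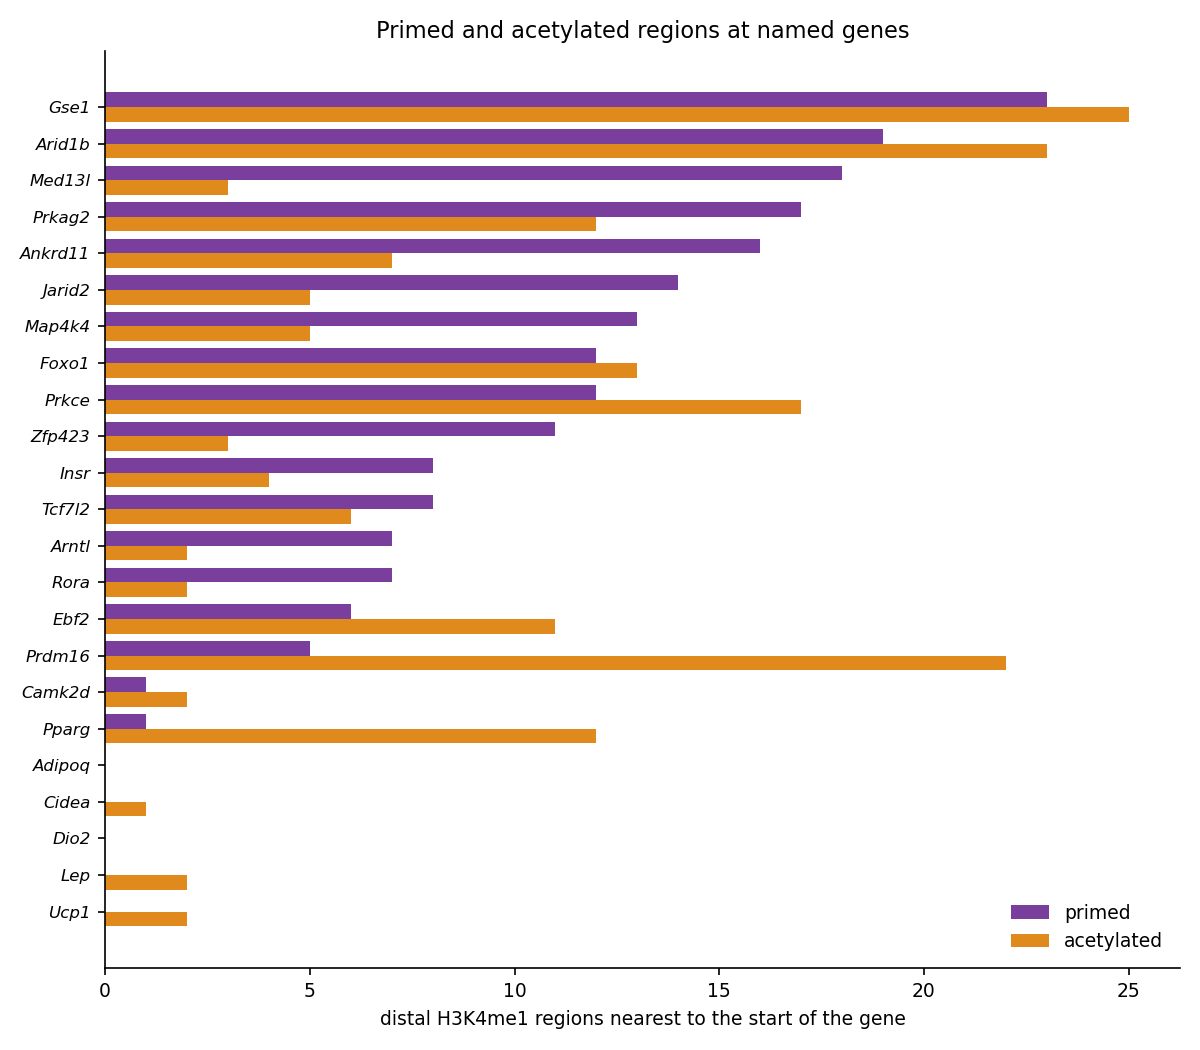
Number of primed (purple) and acetylated (orange) distal H3K4me1 regions whose nearest protein-coding start belongs to each named gene: 9 of the genes with the most primed regions, 9 genes named whatever their values and 5 further list members. Med13l, Ankrd11, Jarid2, Zfp423, Arntl and Rora had more primed than acetylated regions, whereas Pparg and Prdm16 had 1 and 5 primed against 12 and 22 acetylated regions.

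Over all genes there were 3502 primed and 7667 acetylated regions, and at brown fat genes the excess of acetylated regions was larger. Of 19 thermogenic genes, 4 (21.1%) were nearest to a primed region and 11 (57.9%) to an acetylated region. Over all 21911 protein-coding genes these shares were 8.78% and 12.7%, so both were higher at thermogenic genes. The list had 13 and 65 regions in all. Ucp1, the uncoupling protein that produces heat, had 0 and 2, Cidea, a lipid droplet protein, had 0 and 1, and Dio2, which activates thyroid hormone, had 0 of both. Prdm16, a determinant of the brown fat fate, had 5 and 22, and Ebf2, which selects brown fat enhancers, had 6 and 11. The Ebf2 member in the most lists (chr14:67277990-67279163) had fold enrichments of 5.51, 5.29, 4.68 and 3.96 in mice 2, 4, 5 and 8.

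Of 26 adipogenic genes 11 (42.3%) were nearest to primed and 18 (69.2%) to acetylated regions, against 8.78% and 12.7% of all genes. The list had 51 and 139 regions. Pparg, the master regulator of adipocytes, had 1 and 12. Its only member (chr6:115373295-115374003) had fold enrichments of 4.70 in mouse 8 and 4.07 in mouse 11, which are both HFD mice, and lay 216 bp from an H3K27ac peak. Ebf1 had 6 and 22, Nfib 8 and 17, and Rxra, the partner of PPARγ, 7 and 7. Zfp423 went the other way, with 11 and 3. All 11 Zfp423 members were intronic. Adipoq had 0 of both and Lep 0 and 2.

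The list of clock genes as a whole had about as many primed as acetylated regions, and most of its primed regions lay at Arntl and Rora. Of all 21911 protein-coding genes, 8.78% were nearest to primed and 12.7% to acetylated regions, and 866 genes had primed regions alone. Of 19 circadian genes 9 were nearest to primed and 8 to acetylated regions, with 23 and 26 regions, and 4 genes had primed regions alone. Arntl and Rora, a nuclear receptor that activates Arntl, each had 7 and 2, Npas2, a partner of BMAL1, had 3 and 0, and Bhlhe40, a repressor of the clock, had 1 and 0. The 7 Arntl members were all intronic, were found in 2 to 5 lists and lay 1377 to 10774 bp from H3K27ac. Mouse 4 had a peak in each of the 7, with fold enrichments of 3.75 to 6.26, and mouse 11 in none. The 3 Npas2 members lay 48649 to 99000 bp from H3K27ac, and the start of Npas2 carried H3K4me3 in 7 mice and H3K27ac in 0.

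Insulin and IGF pathway genes were nearest to primed regions in 12 of 29 cases (41.4%) and to acetylated regions in 16 (55.2%). Over all genes these shares were 8.78% and 12.7%. The list had 46 and 63 regions. Foxo1 had 12 and 13, Insr 8 and 4, and Pik3r1, a subunit of PI3 kinase, 5 and 13. The 8 Insr members were in 2 to 5 lists, and 7 of them were intronic. Of 39 adrenergic and cAMP genes, 14 (35.9%) had primed and 17 (43.6%) had acetylated regions, but with 20 and 63 regions in all. Pde8a, a cAMP phosphodiesterase, had 3 and 6, and Adra1b, an α1-adrenergic receptor, had 2 and 0.

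Developmental factors had primed regions about as often as acetylated ones, whereas matrix and endothelial genes had them less often than acetylated ones. Of 50 developmental transcription factors 13 (26%) had primed and 12 (24%) had acetylated regions, against 8.78% and 12.7% of all genes. Tcf7l2, an effector of Wnt signalling, led with 8 and 6, followed by Foxp1 with 5 and 2. Of 25 extracellular matrix genes 7 (28%) had primed and 15 (60%) acetylated regions, and Lamc1, a laminin chain of the basement membrane, had 5 and 5. Endothelial genes numbered 2 (14.3%) and 5 (35.7%) of 14, with 2 primed and 58 acetylated regions. Myogenic genes numbered 2 and 2 of 16 (12.5% each). Neural adhesion and guidance genes numbered 1 and 4 of 30 (3.33% and 13.3%), and macrophage genes 0 and 0 of 12. The median gene length was 546 kb in the neural list and 28.2 kb in the thermogenic list, and the part of gene length in these counts was not tested. The lists were chosen with earlier results known, and no list was tested against another.

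The sequence under the summits was richer in GC and poorer in repeats than its surroundings. Windows of 300 bases had a mean GC content of 49.4% in primed and 48.8% in acetylated regions, 46.1% in windows 2000 bp to either side of primed summits and 53.8% in 32851 RefSeq promoters of GRCm38. Repeat-masked bases made up 13.9%, 15.1% and 22.8% of the first 3 sets. CpG dinucleotides averaged 3.19 in primed and 3.10 in acetylated windows, 3.20 in the flanks and 12.4 in promoters. The number of CpG was thus about the same under the summits as in the flanks.

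Of 13 motifs searched on both strands, 4 were more frequent in primed windows than in each of the other 3 sets. These were the palindromes bound by the EBF and NFI families, the E-box CAGCTG and the PPAR and RXR repeat. The EBF palindrome was found in 64 primed windows (1.83%), 1.02% of acetylated windows, 0.800% of flanks and 0.904% of promoters. The NFI palindrome was in only 3 primed (0.0857%) and 5 acetylated windows (0.0652%), 0.0286% of flanks and 0.0365% of promoters. By library, the share of primed and acetylated regions with the EBF palindrome was 1.88% and 1.10% in mouse 2, 2.16% and 1.04% in mouse 4, 1.71% and 1.10% in mouse 5, 1.72% and 0.854% in mouse 8, and 1.83% and 1.32% in mouse 11. The primed share was the higher in all 5, although the libraries share regions. The same was seen for the E-box and for the PPAR and RXR repeat, the latter on only 3 to 8 primed regions in a library. The E-box CAGCTG was found in 20.8% of primed, 18.3% of acetylated and 15.5% of flanking windows and in 16.3% of promoters. The motif TCAAGGTCA of oestrogen-related receptors, which drive mitochondrial genes, went the other way, with 0.685% of primed and 1.25% of acetylated windows, 0.928% of flanks and 0.423% of promoters. Its primed share was the lower in all 5 libraries. The PPAR and RXR repeat was rare, in 10 primed (0.286%) and 11 acetylated windows (0.143%), 0.0857% of flanks and 0.0396% of promoters. The GC box GGGCGG of promoters was in 4.17% of primed windows and 35.7% of promoters. These matches describe letters and no binding, and the shares were not tested.

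Primed regions were uneven between chromosomes. Chromosome 11 held 24.1 per 10 Mb, chromosome 19 held 21.2 and chromosome 3 held 5.87. Chromosome X held 2 of the 3502 members (0.0571%) although it makes up 6.28% of the genome. It held 3 acetylated regions and 77 of all merged H3K4me1 regions (0.166%), but 1.75% of merged H3K27ac and 2.42% of merged H3K4me3 regions. The low share on X was thus found in all merged H3K4me1 regions and was not particular to primed ones. Across the 19 autosomes the density of primed regions followed GC content, with Pearson's r of 0.883 and Spearman's rho of 0.879, and for acetylated regions r was 0.865 and rho 0.904. These are descriptions over 19 chromosomes that share the same libraries and their base composition.

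**Figure D5:**
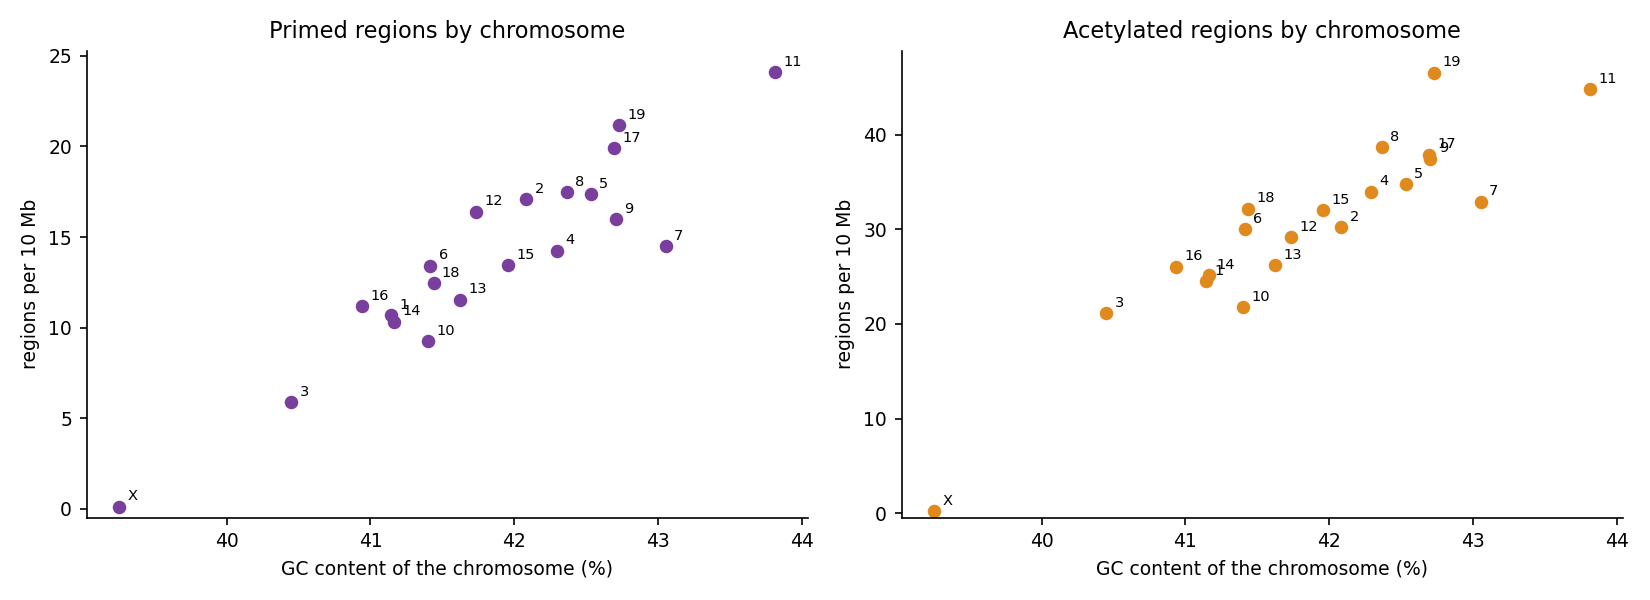
Number of primed (left) and acetylated (right) regions per 10 Mb against the GC content of the chromosome (%), for the 19 autosomes and X, each labelled. Primed density runs from 5.87 on chromosome 3 to 24.1 on chromosome 11, and X lies near 0 in both panels.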

How the data were processed

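H3K4me1, H3K27ac, H3K4me3 and H3K27me3 were measured by ChIP-seq in iBAT of 8 mice, with 40 samples and 32 peak lists. According to the methods, the authors trimmed reads with cutadapt, aligned them to GRCm38 with bowtie2 and called peaks with macs2 against the input of each mouse. For versions and settings, the sources used here give none. The deposited lists give each peak a fold enrichment (a ratio of ChIP to local background) and −log10 p and q values, and the lowest −log10 q was 1.30. Sequencing depth is unknown from these lists, and their length limits what could be found.

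Peaks overlapping by 1 bp were merged, and regions classed by overlap with peaks of other marks, using GENCODE M21 start sites (141862) and genes. No peak ended beyond any of 21 chromosomes compared. A midpoint inside several genes was given to the shortest protein-coding one. Python 3.11.15, numpy 2.4.6, pandas 2.3.3 and scipy 1.17.1 were used, and the code was tested on simulated lists. Values of primed and acetylated peaks were compared within libraries with at least 20 peaks of each class by two-sided exact sign-flip permutation tests over 5 libraries, paired because both values come from the same mouse, with Benjamini-Hochberg adjustment over 7 measures. These 7 measures include width and distance, on which the rule bears and which were not read as tests. The 3 tests between conditions were exact permutations of log10(number + 1), adjusted together, on members chosen from the same H3K4me1 lists. Mice of different conditions are not paired by their numbers.

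The members, gene lists and rules for naming were chosen with earlier results of these data known. Named were the 10 regions in the most lists and, among ties, with the highest median −log10 q, the 10 genes nearest to the most primed regions, the 5 genes with the most in introns, up to 3 condition-bound regions per level, up to 4 genes of each of 11 lists, and 9 further genes whatever their values. Some items named by this rule are not reported here. The motif examples, the motif shares by library and the marks at gene starts were chosen after results were seen. Alternatives changed the minimum number of lists, the distance limit, the q of peaks, the required gap or overlap, the annotation and the mice.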

Additional observations from a re-analysis of the deposited data

Results flagged for a closer look

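Gaps between a value and its group were examined in 18 groups of 4 to 8 values, of which chance flags about 1 in 20, and 3 were flagged. The share of recurrent distal regions that were primed was 5.06% in mouse 1, far from 20.5% to 25.2% in the other 5 mice with a value. The same value stood apart among the 4 NCD mice, where the others had 21.9% to 24.3%. Mouse 1 had 592 H3K4me1 peaks in all, and the part of its short list in this value was not tested. The difference in log10 distance to the nearest start site between primed and acetylated peaks stood at −0.00178 in mouse 5, while the other 4 libraries had −0.0267 to −0.0202. Mouse 5 had the longest H3K4me1 list.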

How the results depend on the processing

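The number of primed regions was within 1.5 times 3502 under most settings, but was 1373 with peaks required in 3 lists and 1755 with H3K4me1 peaks of −log10 q of at least 3. Leaving out each mouse gave 2297 (without mouse 5) to 3700. Without the pairing of classes by library (no replicate block) the intronic difference of 5.12 points passed, at an adjusted exact permutation p of 0.0278. The distance difference of −0.0201 had the same adjusted exact permutation p, but the rule set a limit on distance, so it is not read as a test. Leaving out the block treats the 2 classes of a library as separate samples, and it changed no other call. The intronic share, width and fold enrichment kept their direction under every alternative run. Leaving out each mouse gave 4.46 to 6.32 points for the intronic share, −0.0612 to −0.0238 (without mouse 2) for fold enrichment, 0.118 (without mouse 4) to 0.649 (without mouse 11) for GC, 0.0507 to 0.101 (without mouse 5) for CpG and −0.0401 (without mouse 5) to −0.0110 (without mouse 2) for distance. The distance difference turned to 0.000917 with a limit of 5000 bp and to 0.0142 against all other recurrent distal regions, against which GC content turned to −0.189 and CpG to −0.109. The H3K27me3 difference turned to 0.0197 when only excluding marks with −log10 q of at least 5 counted, and ran from −0.0272 to 0.0232 when each mouse was left out. For numbers per mouse, leaving out each mouse gave −0.22 to 1.22 (log10) for cold against warm, −1.86 to −0.79 for HFD against NCD and −0.41 to 2.82 for the interaction. Without mice 1, 7 and 10 (chosen after seeing the data) cold against warm was −0.10. As a share of recurrent distal regions, primed regions differed between HFD and NCD by 4.30 points (2 against 4 mice). Without mouse 1, a choice made after seeing the data, this was −0.191 and cold against warm −1.85 points. None of these passed, and the causes were not tested. With mouse 1 included at 10 peaks per class, also chosen after seeing the data, the smallest p was 0.0312 and the adjusted exact permutation p of the intronic share 0.0547. The basic annotation gave 3883 regions and an intronic difference of 4.83 points.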
